A study of Homo sapiens with 8 samples.

Results

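ZFP36 and 9 other regulators of mRNA decay were followed in HCT116 cells treated with Fusobacterium nucleatum. The members were chosen by gene symbol: the CCCH zinc-finger proteins ZFP36, ZFP36L1 and ZFP36L2, the endonuclease ZC3H12A, the roquins RC3H1 and RC3H2, the deadenylase scaffold CNOT1, the stabilizing protein ELAVL1, the helicase UPF1 and the exonuclease XRN1. All 10 were found among the 19475 entries of the expression table, and all 10 passed the filter of a mean of at least 1 FPKM that left 11088 genes tested. HCT116 is a human colorectal carcinoma cell line. Cells received PBS (Control) or F. nucleatum, an anaerobic bacterium that colonizes colorectal tumours, at 100 bacteria per cell for 2 h, according to the methods of the study. Poly(A) RNA fragments were sequenced before (input) and after (IP) pull-down with an antibody against N6-methyladenosine (m6A), giving 2 input and 2 IP libraries per group, which the methods call biological replicates.

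Short-lived mRNAs of cytokines and immediate early genes carry AU-rich elements or stem-loops in their 3′UTR. ZFP36 (tristetraprolin) and its paralogs bind the AU-rich elements and recruit the CCR4-NOT deadenylase, ZC3H12A (regnase-1) and the roquins act on stem-loops, and ELAVL1 (HuR) binds AU-rich elements and stabilizes the mRNA. After the poly(A) tail is removed the mRNA is decapped and degraded by XRN1 from the 5′ end or by the exosome from the 3′ end. The mRNAs of the ZFP36 family themselves hold AU-rich elements, and ZFP36 and ZC3H12A are known as genes induced by inflammatory signals whose products limit the same response.

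The relative depth of the input libraries ranged from 0.916 in F. nucleatum 2 to 1.24 in F. nucleatum 1, with Control 1 set to 1, and the absolute depth and that of the IP libraries were unknown. The epithelial markers EPCAM, CDH1, KRT8, KRT18 and KRT19 were at 11.9 to 2286 FPKM in every library, and 0 of 5 passed the test. Of 5 markers of other cells, PTPRC, CD3E and PECAM1 were at or below 0.0111 FPKM in every library, whereas CD68 was at 7.15 to 9.30 FPKM and COL1A1 at 3.78 to 5.72 FPKM, and neither passed the test. FPKM scale fragments by the length of the transcript and the total of the library, so levels of different genes can be compared on this scale. In bulk libraries fewer cells with an mRNA and less mRNA per cell cannot be told apart.

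The mRNAs of ZFP36, ZFP36L1 and ZC3H12A rose after F. nucleatum treatment, and none of the other 7 members passed the test. In all, 3 of 10 members were called higher by limma at an adjusted p under 0.05, where 0.667% of the 11088 genes were called higher, and 0 of 10 were called lower, where 0.135% were. The members were chosen with earlier results of these data known, so this contrast is no independent result. The members' median log2 fold change was 0.0386, beside 0.0137 over all genes tested. Both F. nucleatum libraries lay above both Control libraries for 4 of 10 members (26.1% of all genes) and below them for 1 of 10 (21.1% of all genes). At an unadjusted p under 0.05 the same number of members was lower, 0, and the lowest unadjusted p among the 7 members not called was 0.0756, for ZFP36L2. Fold changes are on the log2(FPKM + 1) scale, which understates the change of low genes.

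**Figure D1:**
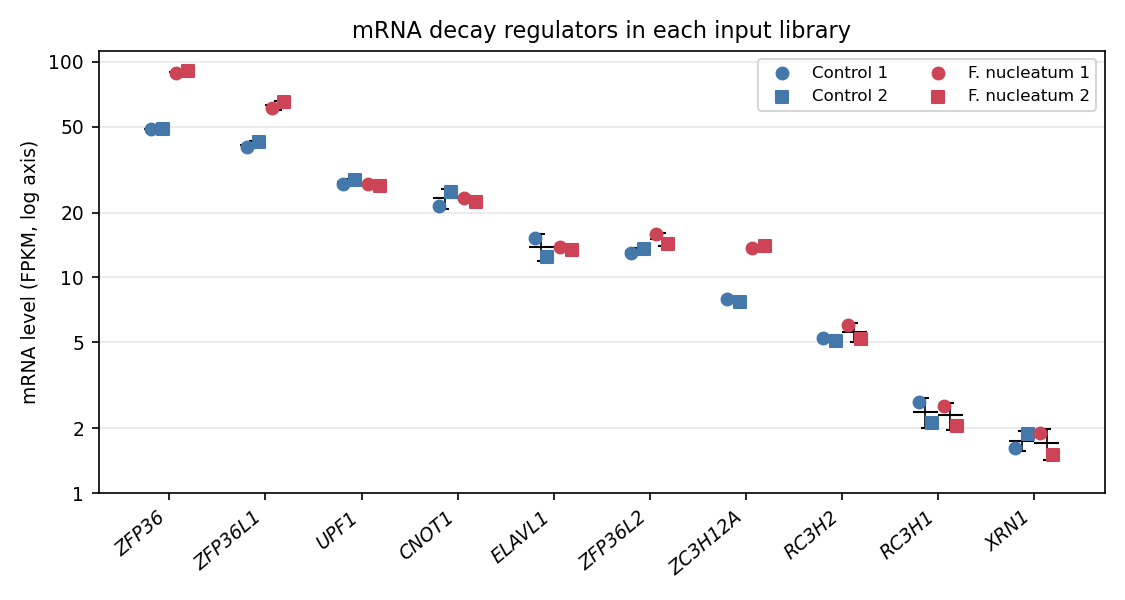
FPKM (log axis) of the 10 decay regulators in the 2 Control (blue) and 2 F. nucleatum (red) input libraries, circles for replicate 1 and squares for replicate 2, with the group mean ± SD as black bars. ZFP36, ZFP36L1 and ZC3H12A show a gap between the groups wider than the spread within them, and ZFP36 goes from 48.93 to 89.8 FPKM.

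The AU-rich binding family comes first, with ZFP36, the member that gives it its name. ZFP36 lies on chromosome 19 at chr19:39897487-39900047 (GRCh37, plus strand), with 2 exons. Its mRNA was at 48.97 FPKM in Control 1 and 48.89 in Control 2, and at 88.72 in F. nucleatum 1 and 90.87 in F. nucleatum 2. Both treated libraries stood above both Control libraries, which differed from each other by less than 0.1 FPKM. The mean rose from 48.93 ± 0.0568 to 89.8 ± 1.52 FPKM (SD, n = 2), which is 1.84-fold. This is 0.86 on the log2 scale (SE 0.0533, 95% confidence interval 0.73 to 1.0), with an adjusted p of 0.00485 in limma. Among all genes tested it stood at rank 59 by log2 fold change and rank 16 by p-value.

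ZFP36L1, a paralog that also binds AU-rich elements, lies at chr14:69254379-69259784 on the minus strand. Its mRNA measured 40.12 and 42.29 FPKM with PBS against 60.85 and 64.94 FPKM with the bacterium. The groups did not overlap, and the mean rose 1.53-fold, from 41.2 ± 1.53 to 62.9 ± 2.89 FPKM (SD, n = 2). On the log2 scale this is 0.60 (SE 0.0645, 95% confidence interval 0.44 to 0.76), with an adjusted p of 0.0265 in limma. This call was lost without the filter on low values (adjusted p = 0.0663 in limma) and without the trend of variance with level (adjusted p = 0.0644).

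ZFP36L2, the third paralog, lies at chr2:43449541-43453745 on the minus strand. It measured 13.02 and 13.54 FPKM in Control against 15.82 and 14.33 FPKM after treatment. Both treated values were above both Control values, but the log2 fold change of 0.17 (95% confidence interval -0.02 to 0.36) did not pass the test (adjusted p = 0.414 in limma). The interval corresponds to a change of 0.983-fold to 1.29-fold of FPKM + 1. An antisense gene, ENSG00000287387, overlaps ZFP36L2, and whether counting used strand was not given in the sources used here, so reads of the pair may not be separated.

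Summed over the 3 paralogs, the level was 102 and 105 FPKM in Control and 165 and 170 FPKM after treatment. ZFP36 made up 48.0% and 46.7% of this sum in Control and 53.6% and 53.4% after treatment. The order of the paralogs, ZFP36 over ZFP36L1 over ZFP36L2, was the same in all 4 libraries. The sum and the share gave p = 0.333 in a two-sided exact permutation test, which is the smallest p that 2 libraries against 2 allow.

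ZC3H12A encodes an RNase that cuts stem-loops in inflammatory mRNAs, and it lies at chr1:37940181-37949978 on the plus strand. It measured 7.976 and 7.669 FPKM in Control against 13.76 and 13.99 FPKM after treatment. The spread within each group was small beside the gap between them, and the mean rose 1.77-fold from 7.822 ± 0.217 to 13.88 ± 0.163 FPKM (SD, n = 2). On the log2 scale this is 0.75 (SE 0.0701, 95% confidence interval 0.58 to 0.93), with an adjusted p of 0.0174 in limma. Without the filter on low values the adjusted p was 0.0528 in limma.

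All 3 calls were lost when either F. nucleatum library was left out, which leaves a single treated library that is assumed to vary like the Control libraries. The adjusted p in limma was then 0.109 and 0.104 for ZFP36, 0.214 and 0.268 for ZFP36L1, and 0.196 and 0.181 for ZC3H12A, without F. nucleatum 1 and 2. The log2 fold changes stayed between 0.85 and 0.88, 0.55 and 0.64, and 0.73 and 0.78 when each of the 4 libraries was left out in turn. The calls were kept when either Control library was left out.

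The roquins bind stem-loop elements and bring in the deadenylase. RC3H1 (chr1:173900222-173991495, minus strand) measured 2.644 and 2.116 FPKM in Control against 2.524 and 2.057 FPKM after treatment, so that the groups overlapped. RC3H2 (chr9:125606835-125667638, minus strand) measured 5.239 and 5.090 FPKM in Control against 5.992 and 5.186 FPKM after treatment. The log2 fold changes were -0.04 (95% confidence interval -0.35 to 0.28) for RC3H1 and 0.09 (-0.14 to 0.33) for RC3H2.

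CNOT1 (chr16:58553855-58663730, minus strand), the scaffold of the CCR4-NOT complex that ZFP36 proteins recruit, measured 21.45 and 25.02 FPKM in Control against 23.43 and 22.38 FPKM after treatment. XRN1 (chr3:142025452-142166879, minus strand), which degrades decapped mRNA, had the lowest level of the 10 members at 1.617 and 1.883 FPKM in Control and 1.9 and 1.5 FPKM after treatment. In both, the treated values lay among the Control values or on both sides of them. The log2 fold changes were -0.02 (95% confidence interval -0.24 to 0.21) for CNOT1 and -0.03 (-0.32 to 0.27) for XRN1. CNOT1 is overlapped by the antisense genes SETD6 and ENSG00000276259.

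ELAVL1 (chr19:8023457-8070525, minus strand), which binds AU-rich elements and stabilizes mRNA, measured 15.28 and 12.49 FPKM in Control against 13.81 and 13.35 FPKM after treatment. Both treated values lay between the Control values. UPF1 (chr19:18942768-18979039, plus strand), the helicase of nonsense-mediated decay, measured 27.23 and 28.30 FPKM in Control against 27.05 and 26.59 FPKM after treatment, and it was the member whose treated values both lay below the Control values. The log2 fold changes were -0.02 (95% confidence interval -0.29 to 0.24) for ELAVL1 and -0.05 (-0.20 to 0.10) for UPF1. Across these 6 members the intervals spanned at most 0.783-fold to 1.25-fold of FPKM + 1. For low genes such as RC3H1 and XRN1 the same intervals are wider in FPKM. Changes within the intervals could not be told from none with these libraries. ELAVL1 is overlapped by the antisense gene ENSG00000269813.

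Set against each other within a library, ZFP36 stood at 3.20 and 3.92 times the FPKM of ELAVL1 in Control and at 6.43 and 6.80 times after treatment. Against CNOT1 the ratio was 2.28 and 1.95 in Control and 3.79 and 4.06 after treatment. Neither ratio overlapped between the groups, and both gave the smallest p possible in the exact permutation test (p = 0.333, n = 2). The log2 fold change was -0.02 for ELAVL1 and for CNOT1, so the ratios restate the rise of ZFP36 and are no separate result.

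**Figure D2:**
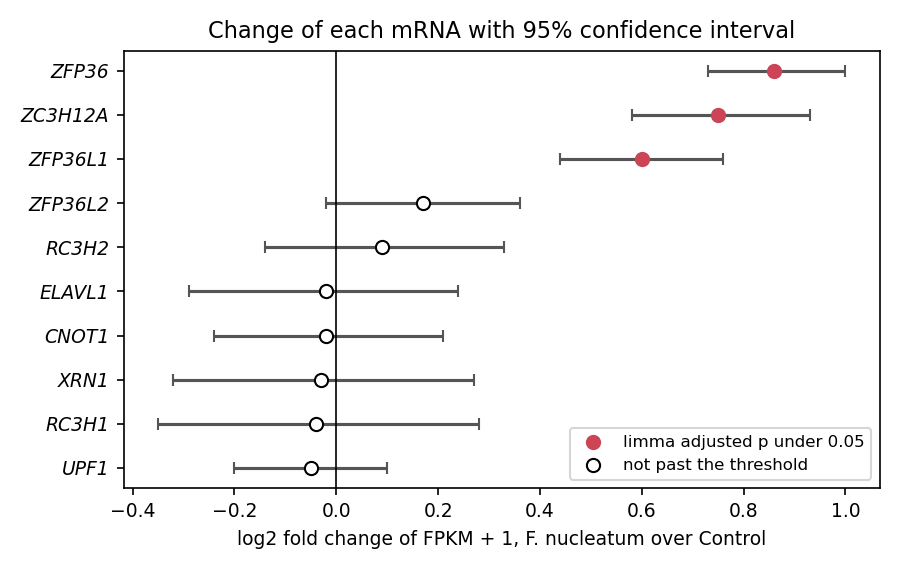
Log2 fold change of FPKM + 1, F. nucleatum over Control, for the 10 decay regulators with the 95% confidence interval from limma. Filled points mark the 3 members with an adjusted p under 0.05, whose intervals start at 0.44 or higher, and the other 7 intervals include 0.

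The members were then set beside the rest of the decay machinery. Of 69 tested genes of deadenylation, decapping, nonsense-mediated decay, the exosome and other RNA binding, 1 was called higher and 0 lower (0.667% and 0.135% of all genes), and the median log2 fold change was -0.0321. The gene called was BTG2, an antiproliferative protein that binds the CCR4-NOT deadenylase subunits. It measured 5.982 and 6.652 FPKM in Control against 14.83 and 14.25 FPKM after treatment, a log2 fold change of 1.09 (adjusted p = 0.00852 in limma). No machinery gene was called when F. nucleatum 1 or F. nucleatum 2 was left out (0 of 69), and 4 and 3 were called without Control 1 and Control 2. Its paralog BTG1 measured 4.863 and 4.347 FPKM in Control against 7.293 and 7.070 FPKM after treatment, without passing the test (log2 fold change 0.55, adjusted p = 0.0939 in limma).

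The 15 other deadenylation genes, which include the catalytic subunits CNOT6, CNOT6L, CNOT7 and CNOT8, ranged from a log2 fold change of -0.20 to 0.35, and the median of all 17 was 0.00147. In decapping, 0 of 15 genes were called and the median was -0.0577. DCP2, the decapping enzyme, had the largest log2 fold change there, 0.40, but 1 Control library decided it, with 3.973 and 1.361 FPKM in Control against 3.632 and 3.389 FPKM after treatment. The next, LSM5 of the LSM ring, measured 12.52 and 20.56 FPKM in Control against 20.22 and 21.25 FPKM after treatment (log2 fold change 0.35). In nonsense-mediated decay, 0 of 9 genes were called, and the largest log2 fold changes were -0.15 for UPF3B and 0.09 for SMG8.

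In the exosome list, 0 of 15 genes were called and the median log2 fold change was -0.136. Both treated libraries lay below both Control libraries for 9 of the 15, where 21.1% of all genes tested did. EXOSC5, a subunit of the exosome ring, measured 43.03 and 41.85 FPKM in Control against 34.86 and 35.09 FPKM after treatment, with a log2 fold change of -0.27 (adjusted p = 0.18 in limma). EXOSC1 had the largest change of the list, 0.45 on the log2 scale, which rested on 1 library: it measured 28.37 and 14.95 FPKM in Control against 28.54 and 28.39 FPKM after treatment.

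Among other RNA-binding proteins of decay, 0 of the 13 tested genes were called. PUM2, a Pumilio protein, had the largest log2 fold change of -0.67, where 1 treated library decided the value, with 19.42 and 18.45 FPKM in Control against 7.781 and 16.89 FPKM after treatment. CELF1, which binds GU-rich elements, had 0.27, with 7.747 and 3.899 FPKM in Control against 6.852 and 6.976 FPKM after treatment. ZC3H12B and ZC3H12D, paralogs of ZC3H12A, were at or below 0.2805 FPKM in every library and were not tested. ZC3H12C, the remaining paralog, measured 1.798 and 1.634 FPKM in Control against 2.022 and 1.745 FPKM after treatment (log2 fold change 0.09).

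Of 18 mRNAs known as targets of ZFP36 or ZC3H12A, 12 passed the filter, which uses the mean over all 4 libraries. Of these 12, 6 had a Control mean under 1 FPKM and passed through their treated values alone, so that a call of them was in part fixed by the filter. Their levels are given as a description, with no test, and counts of calls that include them are no result. The list was also drawn from inflammatory and immediate early genes with earlier results of these data known, so its direction is no independent result.

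Among these 6, CXCL8, a neutrophil-attracting chemokine, measured 0.3960 and 0.3348 FPKM in Control against 40.77 and 38.92 FPKM after treatment. CXCL1, a chemokine of the same family, measured 0.9549 and 0.3922 FPKM in Control against 31.31 and 31.77 FPKM after treatment. In both, every treated value was far above every Control value. The chemokines CXCL2, CXCL3 and CCL20 and NFKBIZ, a regulator of NF-κB and a classical ZC3H12A target, lay between 0 and 0.9956 FPKM in the Control libraries and between 4.239 and 12.84 FPKM in the treated libraries.

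The other 6 had a Control mean of at least 1 FPKM, and 3 of them were called higher and 0 lower (0.667% and 0.135% of all genes). As the list was drawn with earlier results known, these counts are no independent result. IER3, an immediate early gene, rose by 0.79 on the log2 scale, from 114.8 and 113.2 FPKM to 194 and 202.2 FPKM (adjusted p = 0.00601 in limma). DUSP1, a MAPK phosphatase, rose by 0.95 and the cytokine LIF by 0.40 (adjusted p = 0.019 and 0.0459 in limma). These 3 calls too were lost when either F. nucleatum library was left out, with adjusted p-values of 0.111 to 0.461 in limma, and those of DUSP1 and LIF also without the filter (0.0663 and 0.0731). The LIF call was lost as well without the trend of variance with level (adjusted p = 0.137 in limma). VEGFA, FOS and MYC had log2 fold changes of 0.13, 0.00 and 0.08 and were not called. The 6 targets that did not pass the filter included TNF, IL6, IL1A and IL1B, at or below 0.06905 FPKM in every library, and PTGS2, at or below 0.09444 FPKM. CSF2, also not tested, measured 0.1052 and 0.3615 FPKM in Control against 1.328 and 1.793 FPKM after treatment.

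**Figure D3:**
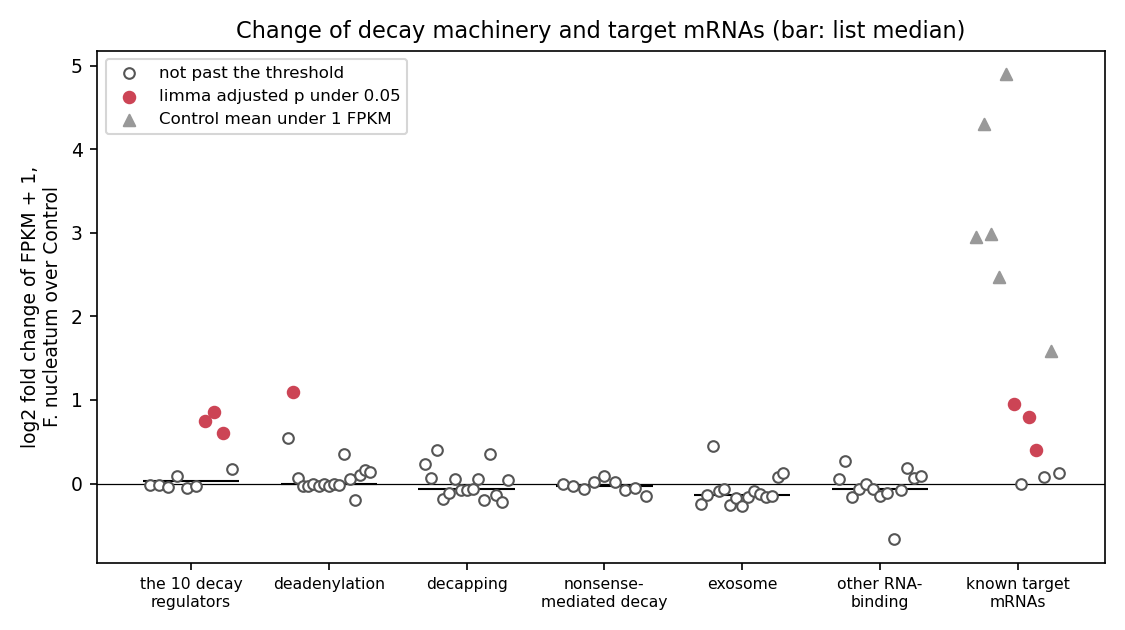
Log2 fold change of FPKM + 1 of each tested gene in the 10 decay regulators, 5 lists of decay machinery and the known target mRNAs, with red points for an adjusted p under 0.05 in limma, open points for the rest, grey triangles for genes with a Control mean under 1 FPKM and bars at the median of lists without such genes. BTG2 at 1.09 is the red point in the machinery lists, and 3 target mRNAs are red.

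The genes whose mRNA profile was most like that of ZFP36 were found by the Euclidean distance, over the 4 input libraries, of log2(FPKM + 1) minus the Control mean of the gene. The nearest of the 11088 was PLAUR, the urokinase receptor, at a distance of 0.0597, with 41.07 and 42.88 FPKM in Control and 76.95 and 80.11 FPKM after treatment. CYR61, a matricellular protein, followed at 0.0819, then NOCT, the protein nocturnin, at 0.0883, IER3 at 0.102 and the phosphatase gene DUSP8 at 0.115. Their log2 fold changes lay between 0.79 and 0.90, beside 0.86 for ZFP36. This likeness follows from the distance by which they were picked and is no separate result.

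AU-rich elements in the members' own 3′UTR were counted in the canonical transcripts as the heptamer TATTTAT, on the mRNA strand, with overlapping matches counted separately. It was present in 8 of the 10 members, and in 31.8% of 19045 3′UTRs of canonical coding transcripts of any length. ZFP36, ZFP36L1 and ZFP36L2 held 3 matches each, where 20.4%, 41.7% and 42.6% of 3′UTRs of like length (within 1.5 times) held any. RC3H2 and ELAVL1 held 5 each, where 68.3% and 66.9% of 3′UTRs of like length held any, and XRN1 held 3, where 66.9% did. RC3H1 held 2, the median at its length, where 78.2% held any, and UPF1 held 1, where 39.2% did. ZC3H12A and CNOT1 held none. A match is a description of the letters and does not show binding. The element of each ZFP36 paralog where matches were densest, or the first of equals, and that of ELAVL1 are shown with the heptamer in capitals, on the mRNA strand of GRCh37, to let the contexts be compared.
ZFP36, chr19:39899821-39899849: aatgggcccttTATTTATgacgactttat
ZFP36L1, chr14:69255053-69255081: ttatcaaaacgTATTTATtgccaaactat
ZFP36L2, chr2:43450587-43450615: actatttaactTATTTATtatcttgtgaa
ELAVL1, chr19:8026724-8026752: ttatttataccTATTTATgtatttattta
The heptamer shown starts 493 nt after the stop codon in ZFP36, 1180 nt in ZFP36L1, 854 nt in ZFP36L2 and 1626 nt in ELAVL1. Of all matches in the members, 1 in ZFP36L1 and 1 in UPF1 lay inside an m6A region described next, merged over the lists. The UPF1 match starts at mRNA position 5025 and lay in the peak of F. nucleatum 2, which ended at 5084. The UPF1 peaks of the other lists ended at 4964 or 5024.

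m6A on the members' mRNAs was described from the 4 peak lists, in which each IP library was compared with its own input. The only value of a peak in the lists is a score taken here for an uncorrected p-value of the authors, and this reading is uncertain. Its size depends on the number of reads as well as on m6A. The 4 lists held 17198 and 18149 peaks in Control and 18365 and 17039 peaks after treatment over all genes. The 10 members carried 14 and 17 peaks in Control and 15 and 14 peaks after treatment, a mean of 15.5 ± 2.12 against 14.5 ± 0.707 peaks (SD, n = 2). The groups overlapped (p = 1 in a two-sided exact permutation test, smallest p possible 0.333).

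Peaks that shared at least 1 base on the same strand were merged into 22 regions on the members. Of these, 9 had a peak in all 4 lists (51.5% of the 22001 regions of the series did), 1 had a peak in both Control lists and in no F. nucleatum list (2.64% of all regions) and 0 had the reverse (2.38%). The other 12 lay in 1 list (7 regions) or in 2 or 3 lists in another combination (5 regions). All 6 regions that covered a stop codon were among the 9 found in every list. Of the 21 regions on the canonical transcripts, 14 held a GGAC, the core of the m6A consensus, beside 73.8% of all regions on canonical coding transcripts, so the members' share was not above that of all regions.

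The stretches around the GGAC nearest to the middle of 4 regions are shown 5′ to 3′ on the mRNA strand of GRCh37, with GGAC in capitals. Those of ZFP36, ZFP36L1 and ZC3H12A come from regions with a peak in all 4 lists, in the mRNAs called higher, and that of ZFP36L2 from the region with peaks in both Control lists only.
ZFP36 coding sequence, chr19:39898929-39898958: ccctctggccgccGGACctcaccaccacca
ZFP36L1 3′UTR, chr14:69256219-69256248: ccagggtagggagGGACctcctgcctactc
ZFP36L2 coding sequence, chr2:43452273-43452302: tcatccacaacgcGGACgagcggcggcccg
ZC3H12A coding sequence, chr1:37948707-37948736: cccaggattgcctGGACtcgggcattggct
Which adenosine was methylated cannot be read from peaks of this width.

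ZFP36 carried a single region, chr19:39897487-39899488, which covered 1188 nt from the first base of the mRNA, through the whole coding sequence, into the 3′UTR. It held 9 GGAC, where regions of like length held a median of 5. The authors' p-values of the peak were 1e-142 and 1e-200 in Control against 1e-307 and 1e-256 after treatment. Between 0.969% and 3.36% of the peaks in a list had a smaller p, so it was among the peaks of smallest p in each. The called stretch was 1158 nt in both Control lists and in F. nucleatum 2, and 1188 nt in F. nucleatum 1.

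ZFP36L1 carried a region of the same kind, chr14:69255299-69259603, with 1916 nt in exons and 11 GGAC, from the coding sequence across the stop codon. Its p-values were 1e-164 and 1e-231 in Control against 1e-307 and 1e-272 after treatment, where the value of a region in a list is the smallest of its peaks. In F. nucleatum 2 the region was split into a peak of 1287 nt with this p-value and a peak of 510 nt with a p-value of 5e-44, larger than those of both Control peaks. A second region lay at the 3′ end of the mRNA, chr14:69254372-69254821, with peak p-values of 0.00024 and 7.1e-07 in Control against 2.5e-17 and 7.9e-15 after treatment. There the called stretch was also longer after treatment, 390 and 450 nt against 151 and 360 nt. A peak of 60 nt in Control 2 alone, chr14:69259873-69259932, lay outside the canonical transcript.

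ZFP36L2 was the member with the region seen in both Control lists only. It lay within the coding sequence at chr2:43452102-43452489, spanned 388 nt with 2 GGAC and 69.1% G and C, and had peak p-values of 1.8e-08 in Control 1 and 2.6e-09 in Control 2. Of all peaks, 50.6% in Control 1 and 50.1% in Control 2 had a smaller p-value, so it was a peak of middle rank. ZFP36L2 mRNA measured 13.02 and 13.54 FPKM in Control and 15.82 and 14.33 FPKM after treatment, as given above. Why no peak was called in the treated lists was not tested, and a stretch with no peak is not shown to lack m6A.

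The region covered the whole stretch that encodes the tandem CCCH zinc fingers, the RNA-binding domain shared by the family. This stretch was located by the spacing of cysteines and histidine in the translated transcript, at codons 159 to 216 of ZFP36L2, 109 to 166 of ZFP36 and 120 to 177 of ZFP36L1, after the region had been seen. In both Control lists 100% of the 58 finger codons of ZFP36L2 lay in a peak, and in both F. nucleatum lists 0%. These shares restate the 1 region of 22 on the members with peaks in both Control lists only, and are no separate result. Of all regions in the series, 2.64% were of this kind. In ZFP36 and ZFP36L1 the finger codons lay in a peak to 100% in all 4 lists.

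The main region of ZFP36L2, at the stop codon (chr2:43450851-43451923), was in all lists, with peak p-values of 2.5e-35 and 6.3e-61 in Control against 3.2e-60 and 1e-53 after treatment. Its p-values overlapped between the groups. Its 3′ edge was the same in every list, at mRNA position 2383, whereas its 5′ edge lay at positions 1430 and 1311 in Control and 1609 and 1639 after treatment. The called length was therefore 954 and 1073 nt in Control and 775 and 745 nt after treatment. Of the 9 member regions in all lists, this one was shorter in both treated lists than in both Control lists (17.3% of 11341 such regions were), and the 3′UTR region of ZFP36L1 was longer (13.7% were). Near the end of the mRNA a weak region, chr2:43449541-43449809, had peak p-values of 0.0074 in Control 1 and 7.8e-06 and 0.0015 after treatment, with no peak in Control 2. Its remaining regions were seen in 1 treated list each: chr2:43449869-43449928 in the 3′UTR, 60 nt, in F. nucleatum 1 with a peak p-value of 0.002, and chr2:43452846-43453447 near the start of the coding sequence, 90 nt in exons, in F. nucleatum 2 with a peak p-value of 0.0037.

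**Figure D4:**
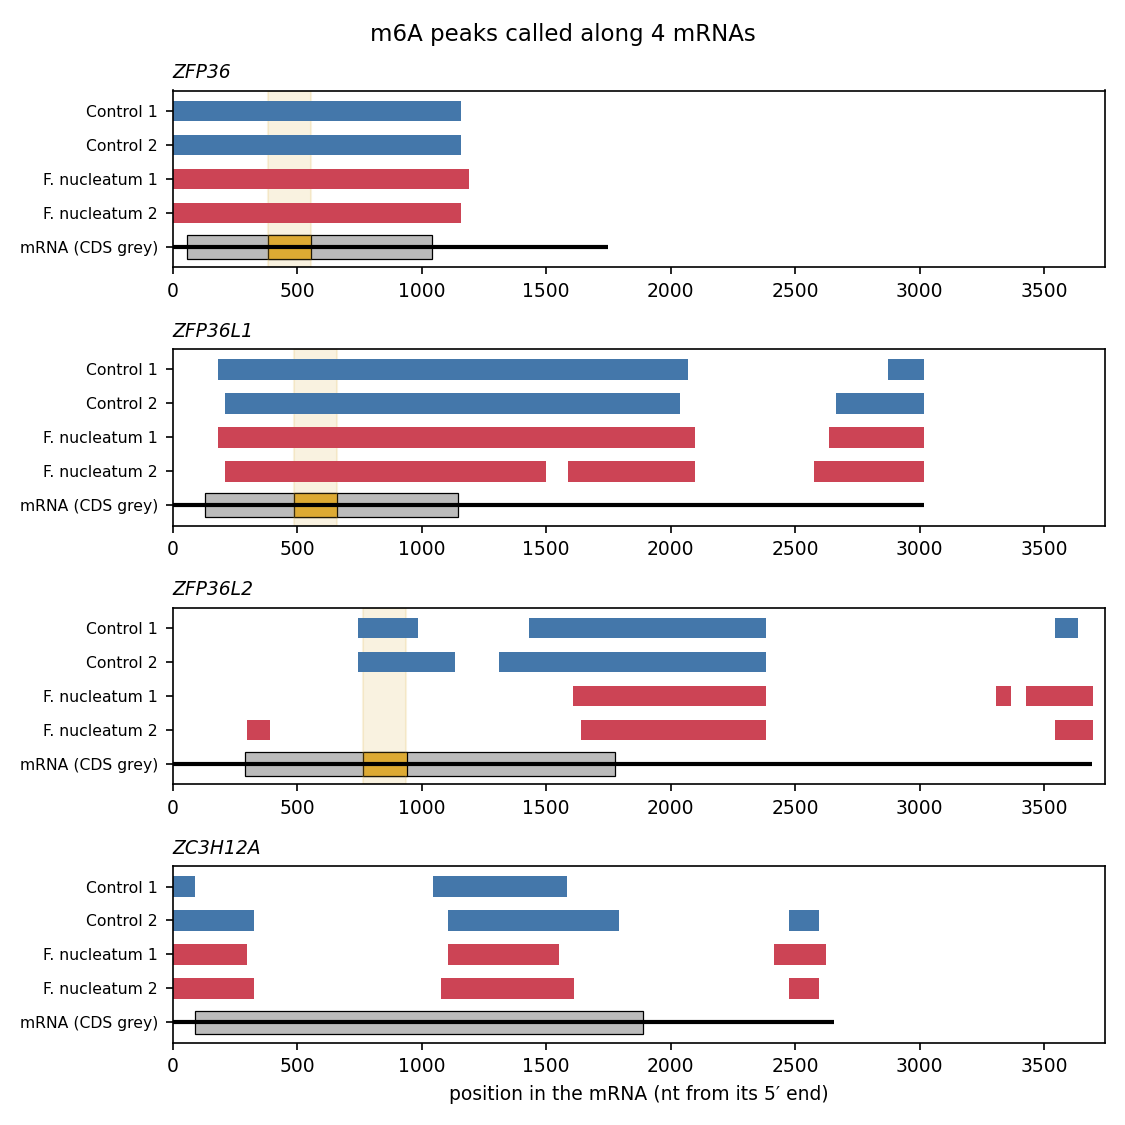
Stretches called as m6A peaks in each list (blue for Control, red for F. nucleatum) along the canonical mRNAs of ZFP36, ZFP36L1, ZFP36L2 and ZC3H12A, by position in nt from the 5′ end, with the coding sequence in grey and the stretch for the tandem zinc fingers of the ZFP36 family in yellow. ZFP36 and ZFP36L1 have the finger stretch inside a peak in all 4 lists, and ZFP36L2 in the 2 Control lists.

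ZC3H12A carried 3 regions and no peak over its stop codon. The one at the 5′ end, chr1:37940179-37941335, had peak p-values of 0.0011 and 0.00021 in Control against 1.1e-05 and 2.6e-10 after treatment. The region in the coding sequence, chr1:37948370-37949114, had peak p-values of 3.2e-19 and 1.3e-23 in Control against 2.5e-30 and 3.2e-23 after treatment, and overlapped between the groups. The third, in the 3′UTR at chr1:37949740-37949948, had no peak in Control 1, and peak p-values of 0.00028 in Control 2 and 6.2e-06 and 8.3e-07 after treatment. With peaks limited to p of at most 1e-05, it became a region of both F. nucleatum lists only.

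In UPF1 the region that runs from the last codons through most of the 3′UTR, chr19:18976864-18978802, covered 1585 nt and held 11 GGAC. Its p-values were 1e-175 and 1e-182 in Control against 1e-128 and 1e-122 after treatment, larger in both treated lists, beside the log2 fold change of -0.05 in its mRNA. A region at its 5′ end, chr19:18942774-18943192, had peak p-values of 0.00018, 7.9e-13 and 7.9e-07 in Control 1, Control 2 and F. nucleatum 1 and no peak in F. nucleatum 2. ELAVL1 had a short region at the stop codon, chr19:8028315-8028554, with peak p-values of 5.9e-08 and 2.5e-08 in Control against 2.3e-09 and 3.5e-09 after treatment. Its other region, chr19:8056656-8070439, ran from the 5′UTR into the coding sequence with 121 nt in exons. This region was seen in Control 2 alone, with a peak p-value of 0.001.

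RC3H2 carried 5 regions, of which the one over the stop codon, chr9:125611822-125613470, was in all lists, with peak p-values of 0.00087 and 6.3e-13 in Control against 4.9e-09 and 2.7e-05 after treatment. The values of the groups overlapped, and this region held 0 GGAC. Its other 4 regions were in 1 to 3 lists, with peak p-values between 3e-06 and 0.0035. CNOT1 had a single peak of 61 nt in Control 2 with a peak p-value of 0.0022, and RC3H1 and XRN1 had none in any list. Of genes within 2-fold of the same mean FPKM, 87.3% had a peak in any list for CNOT1, 81.0% for RC3H1 and 78.9% for XRN1. CNOT1 itself is of this kind through its peak in Control 2. A region in all 4 lists was less frequent among these genes, at 72.6%, 59.7% and 54.2%.

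Over the 9 regions in all lists, both treated p-values were smaller than both Control p-values in 5 (15.7% of 11341 such regions), larger in 1 (18.9%), and overlapped in 3. The 5 were those of ZFP36, both of ZFP36L1, the 5′ region of ZC3H12A and that of ELAVL1, and the 1 was that of UPF1. The main region of ZFP36L1 is counted by the smaller p-value of its pair of peaks in F. nucleatum 2, and by the larger one its groups would overlap. Of the 5, 4 lay in mRNAs called higher, and the part of the mRNA level in these p-values was not tested. The lists give no enrichment over input, so that no change in the m6A fraction of an mRNA can be read from them.

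**Figure D5:**
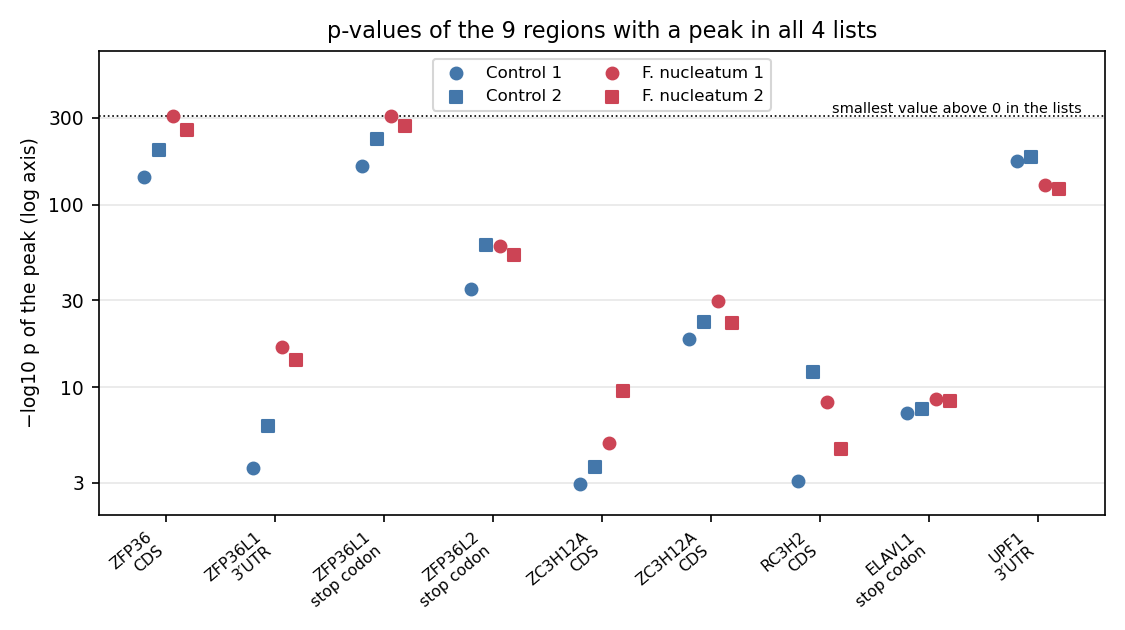
Minus log10 of the p-value of the peak in each list (log axis) for the 9 regions of the members that had a peak in all 4 lists, blue for Control and red for F. nucleatum, with the dotted line at 1e-307, the smallest value above 0 in the lists. The F. nucleatum points lie above the Control points for ZFP36, both regions of ZFP36L1, the left of the ZC3H12A regions and ELAVL1, and below them for UPF1.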

How the data were processed

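The deposited FPKM were computed by the authors with StringTie from the 4 input libraries after adapter removal and alignment to hg19 with HISAT2 2.1.0, per the labels and the methods of the study. Each deposited peak list came from 1 replicate, and its score was taken for an uncorrected p-value of the authors. The study's methods name MACS2 with a Fisher exact test, but the lists have the exon-block layout that exomePeak writes, so the caller and the meaning of the score are uncertain. The lists hold no enrichment or read counts. Groups and replicate numbers came from the sample labels, treatment time and dose from the methods.

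The test was limma 3.58.1 (lmFit, eBayes with trend, in R 4.3.3) for genes whose mean reached 1 FPKM, on log2(FPKM + 1), with Benjamini-Hochberg adjustment over all 11088 genes and a threshold of 0.05. Values of 2 libraries against 2 were compared by exact permutation tests. Peaks sharing at least 1 bp of exon were merged. Relative depth came from the most frequent ratios of values at or below 0.05 FPKM. Coordinates are 1-based on GRCh37, with canonical transcripts of GENCODE 44 mapped to it. A region was called a stop codon region when its middle lay within 100 nt of one. The members and gene lists were chosen with earlier results of these data known. Named from each list were the genes called and the 2 of largest absolute log2 fold change, and the 5 genes nearest to ZFP36. Alternatives covered pseudocount, filter, scaling, trend, replicate block, GC correction, each library left out, a stricter p-value and a reciprocal overlap. The test was tried on simulated data with known changes. It recovered 29.5% of log2 changes of 0.5, 71.7% of those of 1.0 and 94.9% of those of 2.0, with 2 false calls. Changes of 0.5 were therefore mostly missed. Python 3.11.15, NumPy 2.4.6 and SciPy 1.17.1 were used.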

Additional observations from a re-analysis of the deposited data

How the results depend on the processing

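With 2 libraries per group the calls rest on a spread shared over genes. Members called higher were 1 without the filter on low values (ZFP36) and 0 to 3 with each library left out. The same omissions gave 0 to 4 decay machinery genes and 5 to 9 target mRNAs called (9 with all libraries, of which 6 passed the filter through treated values alone, and 7 without the filter), a difference in peak number of -2.5 to 0.5, 1 to 5 regions in Control lists only and 1 to 2 in F. nucleatum lists only. As the calls of those 6 targets were in part fixed by the filter, the target counts are no result and do not show robustness. The log2 fold changes of members that were not called changed sign in some omissions, with ranges of -0.15 to 0.075 for RC3H1, -0.12 to 0.0905 for CNOT1, -0.16 to 0.11 for ELAVL1 and -0.14 to 0.078 for XRN1. With peaks at p of at most 1e-05 the difference in peak number was 2.5 instead of -1.0, and 1 region lay in both F. nucleatum lists only. The causes were not tested. Calls over all genes numbered 89, but 40 without the filter, 24 without F. nucleatum 1, 16 without F. nucleatum 2, 172 without Control 1 and 284 without Control 2. The log2 fold changes of ZFP36, ZFP36L1 and ZC3H12A stayed positive in all 11 alternatives, at 0.84 to 0.89, 0.55 to 0.64 and 0.73 to 0.82.

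The correlation of replicate differences between the groups was 0.0243 over 11088 genes, so same-numbered libraries did not deviate together. Whether they were prepared as pairs was not given in the sources used here, and this value cannot show it. With a replicate block 3 members were called higher and 0 lower, and 90 genes in all.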
